A study of Mus musculus with 6 samples.

Results

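The genes described here are 10 angiogenic factors and partners that islets can make, taken by symbol from the 23284 genes of the count files: the vascular endothelial growth factor family members Vegfa, Vegfb, Vegfc and Pgf, the angiopoietins Angpt1 and Angpt2, the angiopoietin-like protein Angptl4, apelin (Apln) with its receptor Aplnr, and the secreted inhibitor Thbs1. All 10 symbols were found and all 10 had enough counts to be tested. They were measured by RNA-seq of isolated pancreatic islets from 12-week-old mice whose strain the labels write as C56BL/J. Knockout mice carried 2 floxed Neurod1 alleles and Rip-Cre, a Cre recombinase under the rat insulin promoter, which is active in beta cells and is also known from some neurons of the brain. Control mice carried the same 2 floxed alleles without Cre, so the deletion and any effect of Cre itself cannot be told apart. There were 3 libraries of knockout islets (replicates 4, 5 and 6) and 3 of control islets (replicates 7, 10 and 16). Since no label ties a library to its own animal, p-values reflect the spread among these 6 libraries only, which may be technical.

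Islet endocrine cells lie on a dense bed of fenestrated capillaries. Beta cells secrete Vegfa, which acts on the endothelial receptor Kdr and is known to maintain that bed. Pgf and Vegfb bind Flt1, a receptor that also takes up Vegfa, and Vegfc acts mainly on Flt4. Angpt1 activates the receptor Tek, while Angpt2 competes with it and can loosen vessels. Apelin is a peptide ligand of the G protein-coupled receptor Aplnr, which is best known from growing endothelium. Thbs1 is a matrix protein that restrains endothelial growth through Cd36 and Cd47, and Angptl4 is best known as an inhibitor of lipoprotein lipase.

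Total counts ranged from 12206393 to 20412435 per library. Neurod1 had 28.4, 29.8 and 31.3 counts per 1e+06 counts (CPM, with library sizes scaled by TMM factors) in knockout libraries 4, 5 and 6, against 198, 177 and 141 CPM in control libraries 7, 10 and 16, so the groups stood apart as labelled. Beta cell markers summed over 10 genes to between 29990 and 33860 CPM in knockout and between 25390 and 26700 CPM in control islets. Iapp and Ero1lb made up most of that sum, and 5 of the 10 markers rose while 2, G6pc2 and Slc30a8, fell (log2 fold changes -1.04 and -0.53). Acinar markers summed over 16 genes to between 4262 and 12440 CPM in knockout and between 12040 and 42510 CPM in control islets, with knockout library 5 just above control library 16.

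Of the 10 genes, 2 were higher in knockout islets (Aplnr and Angpt2), 2 were lower (Pgf and Vegfb) and 6 did not pass edgeR's quasi-likelihood test at a Benjamini-Hochberg adjusted p under 0.05. Over all 14770 genes tested, 24.4% passed, with 11.8% higher and 12.6% lower. Values of knockout and control libraries did not overlap for 5 of the 10 genes, the 4 that passed and Vegfc, against 42% of all genes tested. The median log2 fold change of the 10 genes was -0.44, against -0.0075 for all genes tested. Aplnr had by far the largest change of the 10, and only 18 of the 14770 genes (0.122%) had a log2 fold change as high as its own or higher, Aplnr included.

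**Figure D1:**
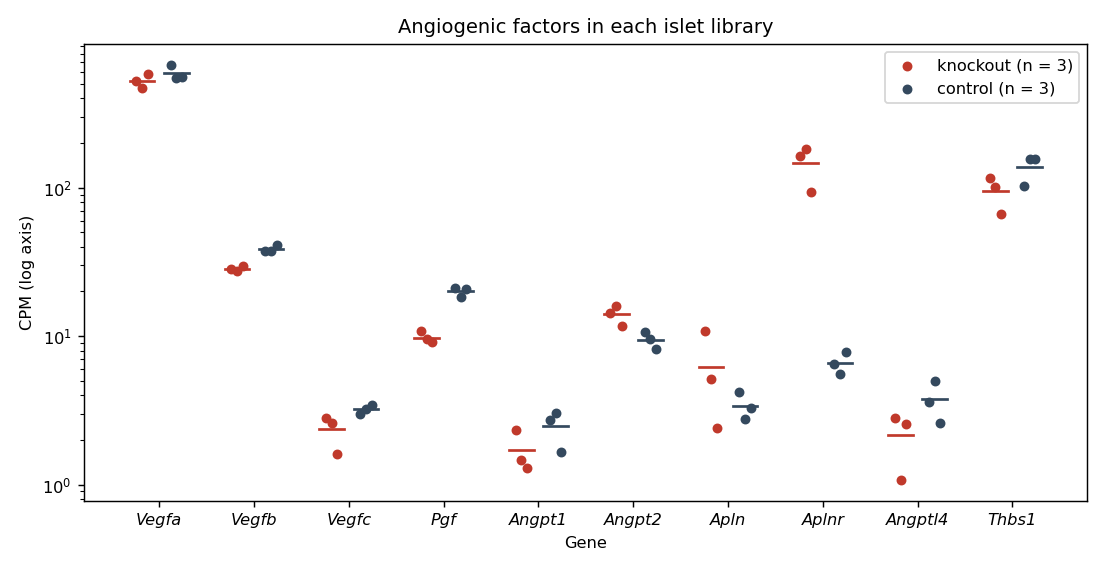
CPM of the 10 genes (log axis) in each library, knockout left of control within each gene; points are libraries and bars are group means (n = 3 each). Aplnr lies between 93.8 and 183 CPM in knockout and between 5.54 and 7.82 CPM in control islets, while the Vegfa values of the groups overlap.

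RefSeq start sites were matched for 5 of the 10 genes (Apln, Pgf, Vegfa, Vegfb and Vegfc). The 250 bases before the start are shown for Pgf and Vegfb, the members that fell, with each E-box CANNTG in capitals, because Neurod1 belongs to the basic helix-loop-helix factors that bind E-boxes. The letters are from RefSeq, build GRCm38.p6, read 5′ to 3′ on the minus strand, at chr12:85177314-85177563 for Pgf (the more upstream of its 2 start sites) and chr19:6987652-6987901 for Vegfb.
Pgf: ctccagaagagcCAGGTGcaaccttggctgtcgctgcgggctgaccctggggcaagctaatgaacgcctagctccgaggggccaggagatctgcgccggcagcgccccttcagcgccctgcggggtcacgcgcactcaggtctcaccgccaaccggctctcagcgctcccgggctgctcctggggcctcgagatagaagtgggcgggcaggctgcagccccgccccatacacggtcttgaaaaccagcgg
Vegfb: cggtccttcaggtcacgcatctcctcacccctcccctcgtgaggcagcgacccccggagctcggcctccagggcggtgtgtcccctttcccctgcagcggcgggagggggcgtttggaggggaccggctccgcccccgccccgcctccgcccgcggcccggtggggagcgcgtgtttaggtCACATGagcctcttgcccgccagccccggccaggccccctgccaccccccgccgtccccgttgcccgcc
Each window held 1 E-box, CAGGTG in Pgf and CACATG in Vegfb. An E-box, whose pattern reads the same on both strands, was in 66.2% of the 32851 windows of this length in the RefSeq table. Of the other windows, that of Apln held 3 E-boxes, the second Pgf window 1 and that of Vegfc 0. The window of the more downstream Vegfa start site held 2, and that of the more upstream one 0. Windows with 3 or more made up 12.2% of all. The core of the hypoxia response element (ACGTG or GCGTG, either strand) was matched 2 times in the Vegfb window and 1 time in the Pgf window shown. It was matched 2 times at the more downstream Vegfa start site and 0 times at the more upstream one. At least 1 match was present in 38.6% of all windows, and 2 or more in 16.7%. The downstream Vegfa window (chr17:46025164-46025413) lies inside the gene, past the upstream start site (window chr17:46032378-46032627, minus strand). Its E-boxes and hypoxia cores are thus in sequence transcribed from that upstream start. A match in letters is a description and does not show that a factor binds there.

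Among the vascular endothelial growth factors, Vegfa did not pass the test, while its relatives Pgf and Vegfb fell. Vegfa, the main growth factor for islet capillaries, had 524, 467 and 587 CPM in knockout libraries 4, 5 and 6, against 674, 547 and 560 CPM in control libraries 7, 10 and 16. The highest value was that of control library 7, and knockout library 6 lay above the other 2 controls. Its mean was 526 ± 60.1 CPM in knockout and 594 ± 70.2 CPM in control islets (SD, n = 3 each). Its log2 fold change of -0.17 (SE 0.12, 95% interval -0.44 to 0.089, adjusted p = 0.308 by edgeR) did not pass, and a fall of more than 0.44 on the log2 scale lies outside the interval. Between 6971 and 13061 reads per library stand behind these values, and the coefficient of variation was 11.4% between knockout and 11.8% between control libraries, where counting alone would give 1.15% and 0.963%.

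Pgf, the placental growth factor, fell 2.05-fold. It had 10.8, 9.52 and 9.08 CPM in knockout libraries 4, 5 and 6, against 21, 18.4 and 20.8 CPM in control libraries 7, 10 and 16. Every knockout library lay well below every control library, and the spread within each group was small (coefficient of variation 8.86% in knockout and 7.18% in control islets). On the log2 scale the change was -1.03 (SE 0.11, adjusted p = 3.91e-04 by edgeR). It passed under each of the 13 alternatives tried, with values from -1.22 to -0.97, and was -1.22 (adjusted p = 0.0161) in a fit with acinar marker level as a term.

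Vegfb, a ligand of Flt1 that is abundant in tissues with high fat use, fell 1.36-fold. It had 28.4, 27.3 and 29.8 CPM in knockout libraries 4, 5 and 6, against 37.7, 37.7 and 41 CPM in control libraries 7, 10 and 16. The groups did not overlap, and the libraries of a group were close to each other. The log2 fold change was -0.44 (SE 0.076, adjusted p = 0.00393 by edgeR). In a fit with acinar marker level as a term, its value was -0.55 and missed the threshold (adjusted p = 0.0600).

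Vegfc, the lymphatic growth factor, was near the low end of what these libraries can resolve, with 20 to 46 reads in knockout and 50 to 66 reads in control libraries. It had 2.83, 2.61 and 1.61 CPM in knockout libraries 4, 5 and 6, against 3, 3.24 and 3.43 CPM in control libraries 7, 10 and 16. All knockout values lay below all control values, but the difference did not pass (log2 fold change -0.44, SE 0.26, 95% interval -1.04 to 0.16, adjusted p = 0.257 by edgeR). Markers of lymphatic endothelium summed over 5 genes to between 56.3 and 68.3 CPM in knockout and between 108 and 132 CPM in control islets. Prox1, which islet endocrine cells also express, carried much of that sum (40 CPM on average in knockout and 58.3 CPM in control islets). Lyve1 had the largest log2 fold change of the list, -2.48 (SE 0.45, adjusted p = 0.0147 by edgeR). Lyve1 averaged 5.17 CPM in knockout and 29.2 CPM in control islets, and which cells carried it was not tested. Pdpn did not pass (log2 fold change -0.30, SE 0.57, adjusted p = 0.743 by edgeR). Flt4 is also counted among the receptors, and Ccl21a had no count in any library. Whether lymphatic cells have a part in the Vegfc values was not tested.

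Per kilobase of the longest coding transcript, the level of Vegfa made up 84.5 ± 1.2% of the summed level of Vegfa, Vegfb, Vegfc and Pgf in knockout islets and 80.6 ± 1.97% in control islets (SD, n = 3 each). The share of Pgf was 2.63 ± 0.372% in knockout and 4.53 ± 0.302% in control islets, and that of Vegfb 12.4 ± 0.717% in knockout and 14.3 ± 1.61% in control islets. These shares were computed after the values of the genes were seen and are given with no test.

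Of the angiopoietins, Angpt2 was higher in knockout islets and Angpt1 did not pass. Angpt2 had 14.4, 16 and 11.7 CPM in knockout libraries 4, 5 and 6, against 10.6, 9.51 and 8.23 CPM in control libraries 7, 10 and 16. The groups did not overlap, with knockout library 6 close above control library 7. The rise was 1.48-fold (log2 fold change 0.56, SE 0.15, adjusted p = 0.0275 by edgeR). The call was lost when knockout library 4, knockout library 5, control library 10 or control library 16 was left out (log2 fold changes 0.46 to 0.56, adjusted p 0.0652 to 0.0937), and in a fit with acinar marker level as a term (0.82, adjusted p = 0.138). In the GENCODE M21 annotation Angpt2 overlaps Mcph1, a gene on the opposite strand, and with no strand setting stated, reads of shared stretches cannot be told apart. The same holds for Angpt1 with Gm17473 and for Thbs1 with Gm29233, noncoding genes that were not tested here. Mcph1 itself had a log2 fold change of -0.015 (SE 0.13, adjusted p = 0.947).

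Angpt1, the ligand that activates Tek, had 2.33, 1.47 and 1.29 CPM in knockout libraries 4, 5 and 6, against 2.74, 3.04 and 1.65 CPM in control libraries 7, 10 and 16. Control library 16 lay below knockout library 4, so the groups overlapped. The log2 fold change was -0.54 (SE 0.34, 95% interval -1.32 to 0.24, adjusted p = 0.285 by edgeR), with 16 to 38 reads in knockout and 24 to 62 reads in control libraries. The log2 ratio of Angpt2 to Angpt1 reads was 2.62, 3.44 and 3.18 in knockout libraries 4, 5 and 6, against 1.96, 1.65 and 2.32 in control libraries 7, 10 and 16. All 3 knockout ratios were above all 3 control ratios, a difference of 1.1 on the log2 scale or 2.15-fold (exact two-sided permutation p = 0.1, the smallest that 3 against 3 libraries allow). Without any 1 library the difference lay between 0.93 and 1.33.

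Of apelin and its receptor, the receptor rose and the ligand did not pass. Aplnr rose 22.4-fold. It had 163, 183 and 93.8 CPM in knockout libraries 4, 5 and 6, against 6.46, 5.54 and 7.82 CPM in control libraries 7, 10 and 16. The lowest knockout library lay more than 10 times above the highest control library, and within the knockout the libraries differed by 1.95 times. The log2 fold change was 4.49 (SE 0.32, 95% interval 3.68 to 5.3, adjusted p = 6.42e-04 by edgeR). It passed under all 13 alternatives, with values from 4.27 to 4.74, the first in a fit with acinar marker level as a term (adjusted p = 0.0426).

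Apln, the ligand, had 10.9, 5.16 and 2.41 CPM in knockout libraries 4, 5 and 6, against 4.18, 2.75 and 3.29 CPM in control libraries 7, 10 and 16. Knockout libraries 4 and 5 lay above every control and knockout library 6 below every control, a 4.51-fold range within the knockout. Its log2 fold change was 0.86 (SE 0.51, 95% interval -0.35 to 2.08, adjusted p = 0.267 by edgeR) and did not pass. It was 0.18 (adjusted p = 0.760) without knockout library 4, and 1.25 (adjusted p = 0.0412) without knockout library 6, which changes the call. In a fit with acinar marker level as a term, its value was -0.29 (adjusted p = 0.898), so no direction is given. Knockout library 6 was also the lowest of the 3 for Aplnr.

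By a likeness of profiles, Aplnr was closest to Matn2, a matrix protein gene, and to Pdyn, an opioid peptide precursor gene, among 14078 genes of at least 1 CPM. Their log2 CPM values over the 6 libraries (prior count 2), each centred on its own mean, differed from those of Aplnr by a root mean square of 0.367 and 0.384. Matn2 averaged 1081 CPM in knockout and 67.5 CPM in control islets, and Pdyn 247 CPM in knockout and 12.3 CPM in control islets. The third place fell to Hes3, a gene for a repressor of the Hes family, with 3.56 CPM on average in knockout islets and no count in any control library, so its distance rests on the prior count and is not given. Vegfa was closest to 2410016O06Rik, Hook2 and Klhl20 (0.0217, 0.0427 and 0.0428). None of these 3 passed the test (log2 fold changes -0.22, -0.19 and -0.14, adjusted p = 0.333, 0.244 and 0.465 by edgeR). Profiles over 6 libraries of 2 genotypes share depth and genotype, so likeness is a description.

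Thbs1 and Angptl4 did not pass. Thbs1, the secreted inhibitor, had 117, 101 and 67 CPM in knockout libraries 4, 5 and 6, against 103, 155 and 155 CPM in control libraries 7, 10 and 16. The groups overlapped, because control library 7 lay below knockout library 4. The log2 fold change was -0.54 (SE 0.26, 95% interval -1.18 to 0.11, adjusted p = 0.195 by edgeR). DESeq2, which called 23.7% of its genes, called Thbs1 lower (-0.52, adjusted p = 0.0379). On simulated data DESeq2 made more false calls than edgeR, but those data were drawn with edgeR's own dispersion estimates, which can favour edgeR. Markers of stellate cells and fibroblasts, which also make Thbs1, summed over 10 genes to 842, 830 and 632 CPM in knockout libraries 4, 5 and 6, against 905, 1207 and 1259 CPM in control libraries 7, 10 and 16. The stromal sum was lowest in knockout library 6 and, among controls, in library 7, as Thbs1 was, and its part in the Thbs1 values was not tested. Platelet markers summed over 6 genes to between 6.33 and 7.3 CPM in knockout and between 5.69 and 7.27 CPM in control islets. Itga2b and Gp1bb made up most of that sum and did not pass (log2 fold changes 0.25 and 0.24). Pf4, Ppbp and Gp9 had too few counts to be tested, and Treml1 had none. They averaged 0.26, 0.11 and 0.067 CPM in knockout and 0.44, 0.23 and 0.37 CPM in control islets (Pf4, Ppbp and Gp9). The log2 ratio of Vegfa to Thbs1 reads was 2.5 ± 0.547 in knockout and 2.12 ± 0.504 in control islets (SD, n = 3 each, exact two-sided permutation p = 0.5, smallest possible 0.1). Its difference of 0.38 was 0.062 without knockout library 6 and 0.67 without control library 7.

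Angptl4 had 2.83, 1.07 and 2.57 CPM in knockout libraries 4, 5 and 6, against 3.62, 5 and 2.61 CPM in control libraries 7, 10 and 16. Control library 16 lay within the knockout range, and knockout library 5 had only 16 reads. Its log2 fold change was -0.80 (SE 0.38, 95% interval -1.68 to 0.072, adjusted p = 0.164 by edgeR).

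**Figure D2:**
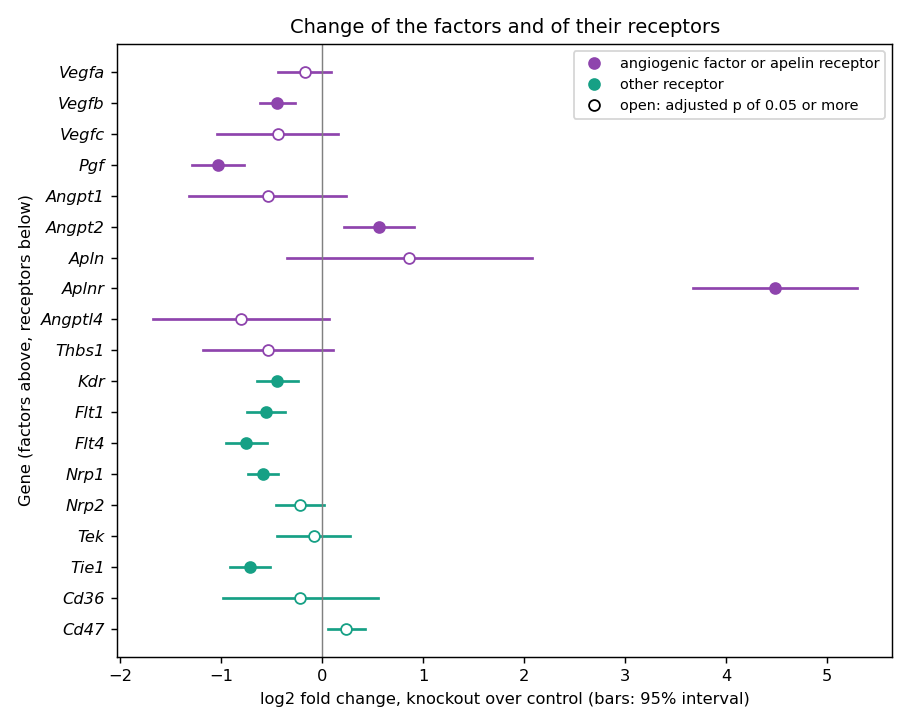
Log2 fold change of knockout over control with its 95% interval for the 10 genes and, below them, 9 receptors and co-receptors; filled points passed an adjusted p under 0.05 by edgeR. Aplnr lies at 4.49, Angpt2 at 0.56, Vegfb at -0.44 and Pgf at -1.03, and the 5 receptors that passed lie between -0.75 and -0.44.

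Levels per length placed Vegfa far above the rest in both genotypes. It had 153 ± 17.4 CPM per kilobase in knockout and 172 ± 20.3 CPM per kilobase in control islets (SD, n = 3 each). In knockout islets the order of mean levels per kilobase was Vegfa, Aplnr, Vegfb, Thbs1, Pgf, Angpt2, Apln, Vegfc, Angptl4 and Angpt1. In control islets it was Vegfa, Vegfb, Thbs1, Pgf, Angpt2, Aplnr, Vegfc, Angptl4, Apln and Angpt1. Aplnr was thus the second of the 10 in knockout islets, at 39.6 ± 12.7 CPM per kilobase, and the sixth in control islets, at 1.79 ± 0.31 CPM per kilobase. Neighbours in the order whose libraries overlapped were Pgf and Angpt2, Angpt2 and Apln, Apln and Vegfc, Vegfc and Angptl4, and Angptl4 and Angpt1 in knockout islets. In control islets they were Vegfc and Angptl4, and Angptl4 and Apln. Lengths were those of the longest coding transcript in GENCODE M21, and the merged exon length gave the same order.

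**Figure D3:**
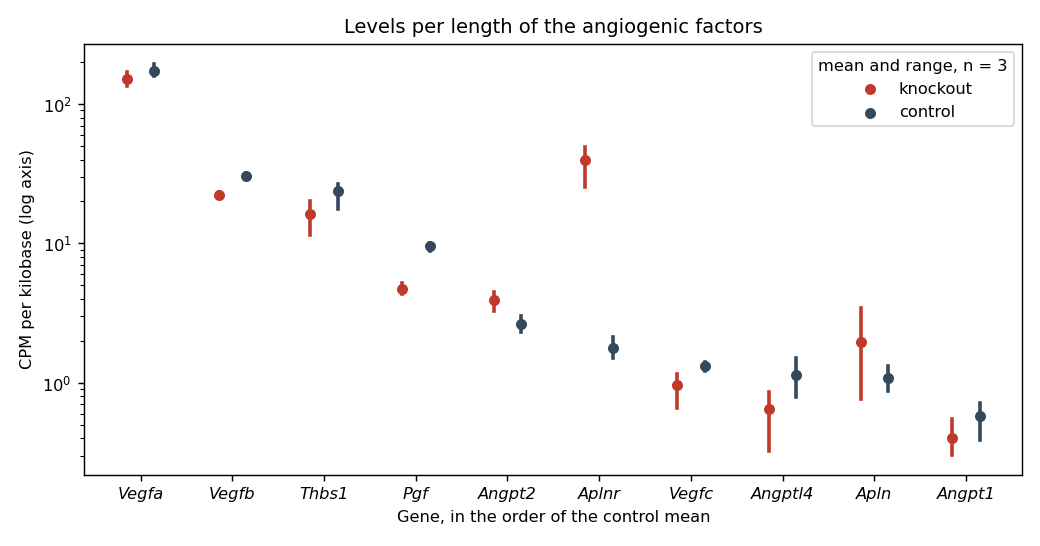
CPM per kilobase (log axis) of the 10 genes, ordered by the control mean, knockout left of control; points are means and lines the range of 3 libraries. Aplnr is the gene that changes place most, at 39.6 in knockout and 1.79 in control islets, and Vegfa is highest in both.

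Several receptors of these factors and endothelial markers fell in knockout islets. Of 9 receptors and co-receptors 5 fell and the other 4 did not pass (median log2 fold change -0.44). Over all genes tested, 12.6% were lower. The receptor list and the gene lists below were chosen with earlier results of these data known, so their counts are descriptions. Nrp1, a co-receptor of Vegfa, averaged 111 ± 5.87 CPM in knockout and 166 ± 2.26 CPM in control islets (SD, n = 3 each; log2 fold change of -0.59, SE 0.066). Flt4, the Vegfc receptor, was at -0.75 (SE 0.088), Tie1, an orphan partner of Tek, at -0.71 (SE 0.087) and Flt1 at -0.56 (SE 0.083). Kdr, named after its value was seen, was at -0.44 (SE 0.088). The adjusted p by edgeR ranged from 5.01e-04 for Nrp1 to 0.00776 for Kdr. Tek, the angiopoietin receptor, was at -0.085 (SE 0.16, adjusted p = 0.739), and the Thbs1 receptors Cd36 and Cd47 were at -0.22 and 0.24 (adjusted p = 0.674 and 0.0640).

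Of 18 endothelial markers, receptors left out, 9 fell and the other 9 did not pass (median -0.48), against 12.6% of all genes tested that were lower. The guidance receptor gene Robo4 (-0.67, SE 0.085), the junction gene Esam (-0.76, SE 0.1), the fenestral diaphragm gene Plvap (-0.49, SE 0.074) and the matrix gene Mmrn2 (-0.48, SE 0.079) had the smallest p. Summed over the 18 genes, the markers stood at 634, 648 and 557 CPM in knockout libraries 4, 5 and 6, against 839, 846 and 866 CPM in control libraries 7, 10 and 16. In bulk islets fewer endothelial cells and less RNA per endothelial cell cannot be told apart. In a fit with acinar marker level as a term, 3 of the 18 markers and 2 of the 9 receptors were lower. Over all 14770 genes tested, 406 were lower in that fit. At an unadjusted p under 0.05 there, 10 of the markers, 5 of the receptors and 3552 of all genes passed, in either direction. Of 11 pericyte markers Mcam (-0.54, SE 0.1) and Notch3 (-0.31, SE 0.09) fell and 9 did not pass, beside the same 12.6% of all genes tested. Leaving out 1 library gave between 1 and 5 pericyte markers.

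The 10 genes were also set against the endothelial markers of the same library. The log2 ratio of CPM to the summed endothelial CPM was higher in each knockout than in each control library for Aplnr (difference 4.9) and Angpt2 (1.03), and lower in each for Pgf (-0.56). For each of these 3 the exact two-sided permutation p was 0.1, the smallest that 3 against 3 libraries allow. Vegfb, which fell in CPM, had a ratio of -4.42 ± 0.178 in knockout and -4.46 ± 0.046 in control islets (SD, n = 3 each), a difference of 0.031 (exact p = 0.9). Vegfa had a ratio of -0.22 ± 0.278 in knockout and -0.52 ± 0.182 in control islets, a difference of 0.3 (exact p = 0.2), with knockout library 5 below control library 7. That difference ran from 0.15 without knockout library 6 to 0.43 without knockout library 5. The other 5 overlapped between the groups, with differences from -0.39 for Angptl4 to 1.09 for Apln and exact p from 0.2 to 1. The difference for Apln was 0.57 without knockout library 4 and 1.57 without knockout library 6.

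**Figure D4:**
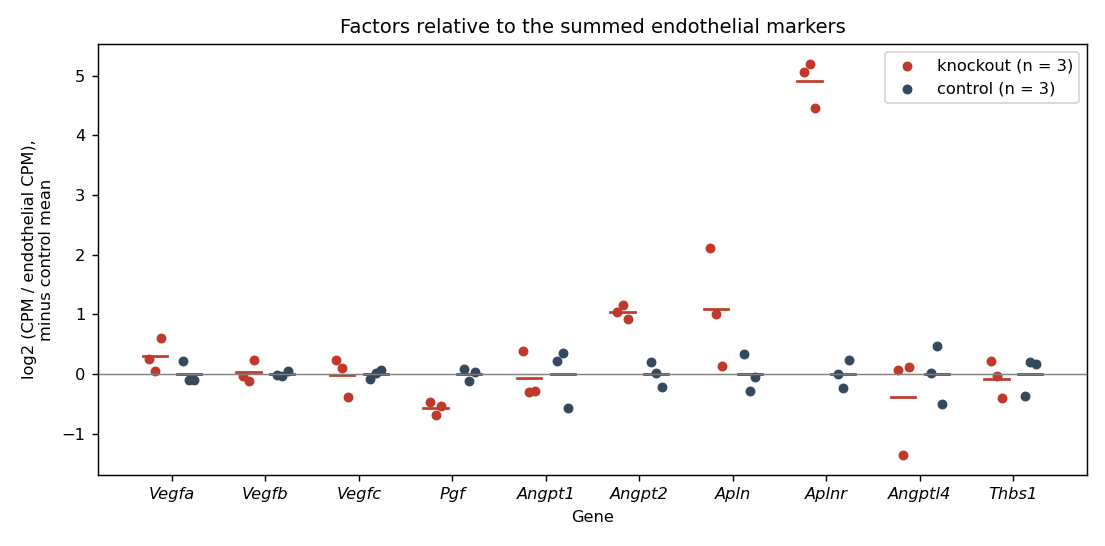
Log2 ratio of each gene's CPM to the summed CPM of 18 endothelial markers, with the control mean set to 0, in each library, knockout left of control; bars are group means (n = 3 each). The knockout points of Aplnr and Angpt2 lie above and those of Pgf below all control points, and the points of Vegfb lie around 0.

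Several other factors of vessel growth fell. Of 17 other factors with a part in vessel growth or mural cell recruitment, some secreted and some membrane-bound, 16 were tested. Of these, 8 fell and 8 did not pass (median -0.71), where 12.6% of all genes tested were lower. Those that fell included Cxcl12, a chemokine (-0.70, SE 0.1), and Dll4, a membrane-bound Notch ligand of endothelial tip cells (-1.01, SE 0.15). The platelet-derived growth factors Pdgfa (-0.61, SE 0.12) and Pdgfd (-0.91, SE 0.18) fell too. Of 13 inhibitors of vessel growth, 12 were tested, 5 fell and 7 did not pass (median -0.63), beside the same 12.6% of all genes tested. Vash1, a secreted inhibitor made by endothelium, had 12.8 ± 1.48 CPM in knockout and 34.5 ± 6.93 CPM in control islets (SD, n = 3 each, -1.43, SE 0.16, adjusted p = 5.01e-04 by edgeR). Adamts1 (-0.69, SE 0.1), Timp3 (-0.87, SE 0.13) and Sema3f (-0.77, SE 0.13) fell as well, as did Sparc (-0.43, SE 0.12), which was named after its value was seen. In a fit with acinar marker level as a term, edgeR called 0 of the 16 factors (8 at an unadjusted p under 0.05, and 8 by DESeq2 without the term) and 1 of the 12 inhibitors. With that term, edgeR called 406 of all 14770 genes tested lower. The summed endothelial and stromal markers were also lower in each knockout than in each control library (values above), Sparc is itself in the stromal list, and the part of either cell type in these counts was not tested. Of 11 further members of the Vegf, angiopoietin, angiopoietin-like, thrombospondin and apelin families, 10 were matched and 6 tested. Only Thbs3 of these fell (-0.48, SE 0.11, adjusted p = 0.0129 by edgeR), where 12.6% of all genes tested were lower.

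Hypoxia genes include known regulators of Vegfa and Angptl4. Of 19, 18 were tested, 2 rose, 3 fell and 13 did not pass (median -0.10), a share close to the 24.4% of all genes tested that passed. In a fit with acinar marker level as a term 3 passed, beside 1005 of all 14770 genes tested. Ldha, lactate dehydrogenase A, rose to 104 ± 9.05 CPM in knockout islets, against 20 ± 3.34 CPM in control islets (SD, n = 3 each; log2 fold change of 2.38, SE 0.13), while Pgk1, a glycolytic kinase, rose by 0.57 (SE 0.1). Ndrg1, a stress-response gene, was at -1.37 (SE 0.08), Epas1, the endothelial hypoxia factor HIF-2 alpha, at -0.53 (SE 0.079), and Ankrd37, named after its value was seen, at -0.69 (SE 0.18). Hif1a, the factor that acts on Vegfa, was at -0.054 (SE 0.072, adjusted p = 0.629 by edgeR). That is its RNA level, and its protein and activity were not measured. The glucose transporter Slc2a1 was at -0.13 (SE 0.19, adjusted p = 0.655).

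In the authors' deposited table, 4 of the 10 genes had an adjusted p under 0.05, against 12.8% of all genes with a p there. They were Vegfb (log2 fold change -0.43, adjusted p = 0.0230), Pgf (-1.02), Angpt2 (0.58, adjusted p = 0.0274) and Aplnr (4.49). Vegfa was at -0.16 (adjusted p = 0.554) in the authors' deposited table.

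**Figure D5:**
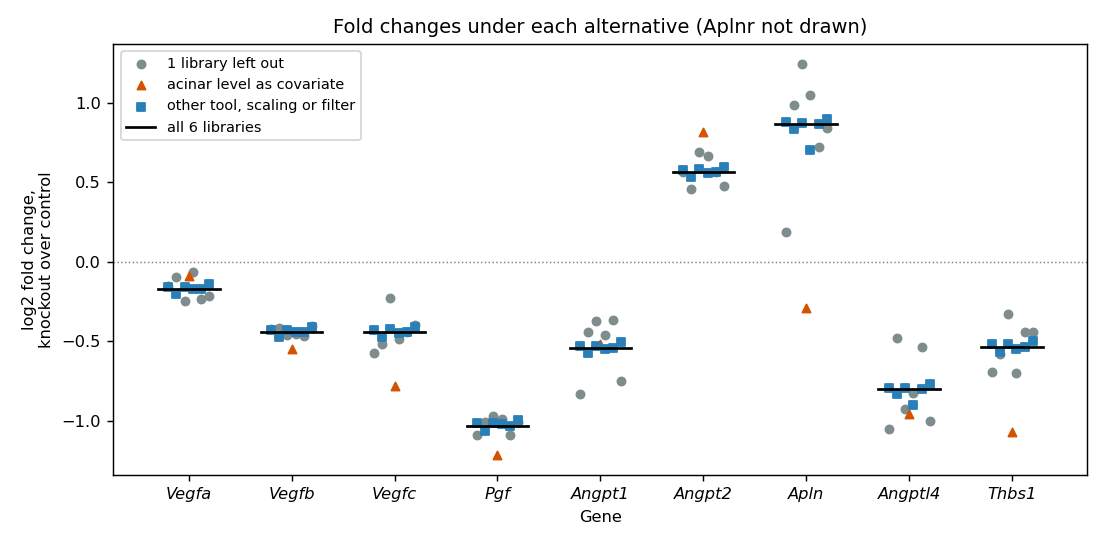
Log2 fold change of 9 of the genes (Aplnr lies off this scale) in knockout over control with all 6 libraries (black line) and under 13 alternatives: 6 that leave out 1 library (circles), 1 with the acinar marker level in the fit (triangles) and 6 other tools, scalings or filters (squares). The values of Pgf stay between -1.22 and -0.97, while those of Apln run from -0.29 to 1.25.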

How the data were processed

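Islet RNA was sequenced as single-end 100 bp reads from TruSeq libraries, per the labels' protocols. Each library has a file of raw counts, deposited by the authors, and a further table of theirs holds group means of scaled counts (a signal never below 0), their ratio, its log2 value and p-values. The tools listed are TopHat2 2.1.0, Cufflinks 2.0.2, DESeq and bcl2fastq 1.8.4, with build mm9, per the submitters' processing notes. Read counter, annotation and strand setting were not given in the sources used here. Means over all libraries in the authors' table equal the deposited counts over size factors recomputed here.

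Counts were tested in edgeR 4.0.16 (R 4.3.3): filterByExpr (minimum count 10, total 15) left 14770 of 23284 genes, with TMM factors 0.988 to 1.02, robust quasi-likelihood F tests and Benjamini-Hochberg adjustment over all genes. Standard errors come from that fit. Alternatives were limma-voom (limma 3.58.1), DESeq2 1.42.0, other scalings, no filter, an acinar covariate and leaving out each library. On simulated counts with known changes all 3 tools gave the right signs and fold changes, but each made more false calls than the nominal rate, DESeq2 the most. These counts were drawn with the dispersions that edgeR estimated and with few genes changed. The order of the tools may therefore differ in the real data. DESeq2 exceeded the limit first set for false calls, which was then applied to edgeR alone. No pair of replicates agreed within sampling noise (chi-square over its degrees of freedom 15.9 to 41.5). The depth of 12206393 to 20412435 counts limits the precision of genes with few reads.

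The 10 genes and the lists were chosen with earlier results of these data known. From each list, up to 4 genes with the smallest p past the threshold are named. Also named, outside that rule, are Kdr, Sparc and Ankrd37, which passed, and Tek, Cd36, Cd47, Hif1a and Slc2a1, which did not. Single genes of the cell marker lists are named outside it too. Profile likeness names 3 genes each for Vegfa and Aplnr. Apela and Adgre1 were not matched by symbol. Sequences and lengths use GRCm38 annotation, so no mm9 coordinate is given.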

Additional observations from a re-analysis of the deposited data

How the results depend on the processing

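Of the 10 genes, Aplnr, Pgf, Vegfa, Vegfc, Angpt1 and Angptl4 kept their direction and their side of the threshold under all 13 alternatives. Vegfb missed the threshold only in a fit with acinar marker level as a term. Thbs1 passed only with DESeq2. Angpt2 missed the threshold under 5 alternatives, and Apln passed without knockout library 6 and changed sign, to -0.29, with that term. For all of these the cause was not tested. Neurod1 passed under every alternative (-2.66 to -2.09).

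In a fit with acinar marker level as a term, 2 of the 10 genes passed, 1005 of all genes, 2 receptors, 3 endothelial markers, 1 vessel inhibitor and 3 hypoxia genes. With that term edgeR called 0 of the other factors of vessel growth (8 at an unadjusted p under 0.05, and 8 called by DESeq2 without it) and 0 of the further family members (3 at an unadjusted p under 0.05, and 1 called by DESeq2 without it). That model leaves fewer degrees of freedom and a term that differs with genotype. With no filter on low counts 1 pericyte marker passed.

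Leaving out 1 library gave 3 to 5 of the 10 genes, 2378 (without control library 10) to 2969 of all genes, and 1 to 5 pericyte markers (5 with knockout library 4 left out, and 1 with knockout library 5, knockout library 6, control library 7 or control library 16 left out). Ratios to the endothelial markers changed sign for Vegfb (-0.069 to 0.10), Vegfc (-0.15 to 0.16), Angpt1 (-0.35 to 0.11), Angptl4 (-0.65 to 0.094) and Thbs1 (-0.26 to 0.089). No paired analysis was possible because the groups share no replicate number. Genes with under 70 reads in every library, such as Vegfc and Angpt1, have wide intervals.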
